A study of Mus musculus with 20 samples.

Results

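The smooth muscle contractile genes are a named set of 10: Acta2, Myh11, Des, Tagln, Cnn1, Actg2, Myl9, Lmod1, Smtn and Synm. They were matched by gene symbol, from a set drawn up with earlier results of these data known, and all 10 were found among the 12701 genes counted. RNA was sequenced from a segment of proximal colon (PC) of 20 C57BL/6 mice. From 3 weeks of age all of the mice ate the Total Western Diet (TWD), whose nutrients follow what Americans typically eat, for 6 weeks. For a further 3 weeks 5 mice stayed on the plain TWD (0% RPS) and 5 each were given the TWD with 2, 5 or 10% raw potato starch, a resistant starch (RPS). The labels give no engineered allele for any group and no sex, cage or litter, so the spread between libraries is the spread between these samples.

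Smooth muscle shortens when myosin, switched on by phosphorylation of its regulatory light chain, pulls on actin filaments that are anchored in dense bodies. Calponin, transgelin, smoothelin and leiomodin sit on or cap the actin filament, and desmin and synemin form the intermediate filaments that tie the contractile units together. In the colon these proteins mark the circular and longitudinal layers of the muscle coat, the thin muscularis mucosae and the walls of blood vessels. Many of their genes are driven by serum response factor (SRF), which binds a short A and T rich element named the CArG box, together with the coactivators of the myocardin family.

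The promoters of the members that hold a CArG box are shown because that element is the one through which SRF is known to act on genes of this kind. RefSeq promoters (GRCm38.p6) were matched for 7 of the 10 members, with Myh11, Tagln and Actg2 named only. The 250 bases before each start were searched on both strands for the CArG box and for boxes 1 letter away from it, and the boxes are in capitals below.

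Acta2, chr19:34255378-34255467, minus strand: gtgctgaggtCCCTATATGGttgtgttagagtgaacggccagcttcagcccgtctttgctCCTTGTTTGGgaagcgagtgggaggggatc

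Myl9, chr2:156775293-156775382, plus strand: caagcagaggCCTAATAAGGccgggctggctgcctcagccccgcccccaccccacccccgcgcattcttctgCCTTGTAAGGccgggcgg

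Lmod1, chr1:135324614-135324703, plus strand: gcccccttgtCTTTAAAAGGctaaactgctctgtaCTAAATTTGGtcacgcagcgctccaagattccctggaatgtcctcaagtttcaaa

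Synm, chr7:67759902-67759991, minus strand: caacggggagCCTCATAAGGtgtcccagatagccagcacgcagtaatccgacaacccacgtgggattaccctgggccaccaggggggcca

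Myl9 held 1 exact box, 161 bases before its start, and 1 box with a changed letter at 99 bases. Acta2 held 2 boxes with a changed letter, at 84 and 34 bases, Lmod1 held 2, at 189 and 164 bases, and Synm held 1, at 239 bases. Among the 12119 RefSeq promoters of genes counted here, 1.27% held an exact box and 15.1% held a box that was exact or 1 letter off, against 1 and 4 of the 7 member promoters. Of the 94 promoters of other smooth muscle genes, 11.7% held an exact box and 27.7% a box exact or 1 letter off. No box was found in these windows of Des, Cnn1 and Smtn, which says only that the letters are not there.

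The libraries held 20581013 to 35083751 counted reads. The members were deeply counted: the lowest count of any member in any library was 1949, for Synm, where counting error alone is 2.27%, small beside the spread between libraries. As RPKM (counts scaled to exon length and to the library total), Acta2 averaged 423 ± 91.4 (SD, n = 20), Actg2 388 ± 119, Myl9 338 ± 70, Myh11 285 ± 60.5, Cnn1 187 ± 67.8, Tagln 180 ± 46.9, Des 165 ± 59.4, Smtn 111 ± 20.3, Lmod1 28.6 ± 5.6 and Synm 15.6 ± 7.04. The break between Smtn and Lmod1 was the widest, a 3.9-fold step with no overlap over the 20 libraries, and Lmod1 was above Synm in 19 of them. The 3 leading genes were close: Acta2 was above Actg2 in 15 of 20 libraries and Actg2 above Myl9 in 14, and with the length of the canonical transcript in place of the exon union (an alternative chosen after the data were seen) Myl9 came first, followed by Actg2 and then Acta2. Cnn1, Tagln and Des did not stand apart from each other in level either, and their order also turned with the length used. The 10 genes together took 0.763 ± 0.184% of all counts (n = 20), from 0.511% in replicate 5 of the 2% diet to 1.25% in replicate 2 of the 0% diet.

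That replicate 2 of the 0% diet stood apart from the other libraries in its values. It was the highest of the 20 libraries for 8 of the 10 members, and replicate 1 of the 2% diet was the highest for the other 2, Myh11 and Myl9. The summed normalized count of 8 fibroblast markers was 60188 in it, against 18555 to 31515 in the other 19 libraries, and that of 4 leukocyte markers was 15058 against 2994 to 7247. Most of the leukocyte sum was Jchain (11831), a gene of plasma cells. Lyz2 (2879) and Adgre1 (237) were also at their highest in it, and Cd79a (110, highest library 197) was not. The sum of 12 epithelial markers was 1075670 in it, the highest of the 5 libraries of its diet and rank 15 of the 20. Single epithelial markers went both ways in it. Car1 (70115, mean of the 20 libraries 321199) and Vil1 (18183) were at their lowest of the 20. Slc26a3 (12364, mean 5172) was at its highest, and Muc2 (650053) was above its mean of 500302. Differences of the members from the 0% diet are therefore given with and without this library. It was singled out after its values were seen. As it was the highest library of its diet for all 10 members, leaving it out moves their differences from the 0% diet upward. The part of these markers in the results was not tested.

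**Figure D1:**
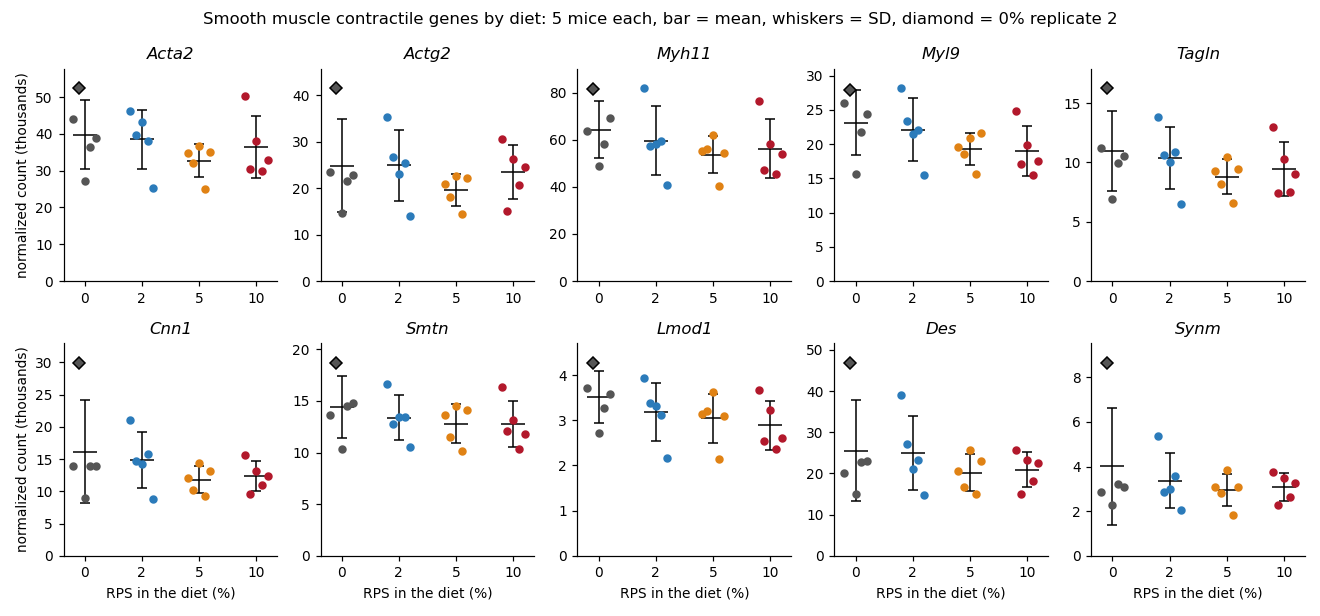
Normalized count in units of 1000 (vertical axis, from 0) of each member in each of 20 libraries, by RPS in the diet in percent (horizontal axis). Points are libraries, bars the mean and whiskers the SD of 5, and the diamond is replicate 2 of the 0% diet, which is highest for 8 of the 10 genes. The ranges of all 4 diets overlap for every gene.

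Of the actins, Acta2 encodes alpha smooth muscle actin, which is also made by vascular smooth muscle, pericytes and activated fibroblasts, and lies at chr19:34217737-34232990, minus strand (GRCm39). Its normalized counts (counts divided by the DESeq2 size factor of the library) were 44073, 52500, 27068, 36482 and 38862 in the 0% mice and 46276, 39768, 43115, 38107 and 25339 in the 2% mice. They were 34847, 32129, 36745, 25071 and 35016 in the 5% mice and 50238, 30546, 38193, 30040.1 and 32908 in the 10% mice. The 5% libraries were the lowest as a group, yet every diet overlapped every other, and the highest 10% library was close to the highest 0% library. Relative to the 0% diet its log2 fold change was -0.05 at 2%, -0.28 at 5% and -0.13 at 10% RPS (SE 0.18 at 10%), with DESeq2 adjusted p of 0.958, 0.426 and 0.727. Without replicate 2 of the 0% diet they were 0.07, -0.16 and -0.01.

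Actg2, the gamma actin of visceral smooth muscle (chr6:83489887-83513551, minus strand), had 23404, 41565, 14682, 21493 and 22714 normalized counts at 0% and 35338, 26799.5, 23051, 25440.1 and 13982 at 2% RPS. The 5% libraries had 20923, 17987, 22614, 14339 and 22091, and the 10% libraries 30505, 15135, 26266, 20632 and 24602. The 5% libraries lacked the high values found in the other 3 diets, and the means of the 0% and 2% diets, 24772 ± 10009 and 24922 ± 7672 (SD, n = 5), were almost equal. The log2 difference from the 0% diet stood at 0.01, -0.34 and -0.08 at 2, 5 and 10% RPS (DESeq2 adjusted p 0.995, 0.539 and 0.895), and its interval at 10% ran from -0.61 to 0.45. Leaving out replicate 2 of the 0% diet gave 0.28, -0.07 and 0.19.

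Of the myosin subunits, Myh11 is the smooth muscle heavy chain, the motor itself (chr16:14012399-14109236, minus strand). It was counted at 63542, 81296, 48777, 58109 and 69170.4 in the 0% mice and at 81973, 57306, 58234, 59597 and 40864 in the 2% mice. At 5% RPS the values were 55241, 55927, 61843, 40387 and 54478, and at 10% they were 76512, 46964, 58259.7, 45438 and 53742. The 0, 2 and 10% diets each had at least 1 library above all of the 5% libraries by a wide margin, and the ranges overlapped throughout. Relative to the 0% diet its log2 fold change was -0.11 at 2%, -0.26 at 5% and -0.19 at 10% RPS (SE 0.17 at 10%), with DESeq2 adjusted p of 0.892, 0.446 and 0.56. Without replicate 2 of the 0% diet they were -0.01, -0.16 and -0.09.

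Myl9, the regulatory light chain whose phosphorylation starts contraction (chr2:156617084-156623579, plus strand), had normalized counts of 25951, 27954, 15606, 21700.3 and 24349 at 0% and 28199, 23355, 21455, 22102 and 15415 at 2% RPS. It had 19571, 18586, 20955, 15678 and 21605 at 5% and 24863, 17033, 19857, 15511 and 17551 at 10% RPS. Its diet means stepped down from 23112 ± 4779 to 22105 ± 4579, 19279 ± 2332 and 18963 ± 3648 (SD, n = 5), but the lowest 0% library lay beside the lowest 10% library. The log2 difference from the 0% diet stood at -0.06, -0.26 and -0.29 at 2, 5 and 10% RPS (DESeq2 adjusted p 0.936, 0.412 and 0.32), and its interval at 10% ran from -0.60 to 0.03. Leaving out replicate 2 of the 0% diet gave 0.01, -0.18 and -0.21. It was the member with the lowest p in the test of a straight line over the percentage of RPS.

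Of the thin filament genes, Cnn1 encodes calponin 1, an actin-binding inhibitor of the myosin ATPase (chr9:22010512-22020926, plus strand). Cnn1 stood at 13911, 29960.1, 8881, 13977 and 13992 normalized counts at 0% and at 21042, 14644, 14169.8, 15785 and 8749 at 2% RPS. The values were 12088, 10124, 14316, 9193 and 13077 at 5% and 15656, 9619, 13207, 10936 and 12431 at 10% RPS. The second 0% library was far above the other 4 of its diet, which ran from 8881 to 13992. Relative to the 0% diet its log2 fold change was -0.12 at 2%, -0.46 at 5% and -0.38 at 10% RPS (SE 0.29 at 10%), with DESeq2 adjusted p of 0.935, 0.424 and 0.475. Without that library the differences were 0.23, -0.11 and -0.04.

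Tagln, transgelin or SM22 alpha (chr9:45840909-45847404, minus strand), ranged from 6918 to 16291 at 0% and 6515 to 13854 at 2% to 6558 to 10445 at 5% and 7457 to 12966 at 10% RPS. Smtn, smoothelin, found in contractile but not in proliferating smooth muscle (chr11:3467520-3490612, minus strand), ranged from 10344 to 18722, 10499.7 to 16648, 10140.2 to 14494 and 10379 to 16357 in the same order. Lmod1, leiomodin 1, a nucleator of actin filaments (chr1:135252509-135295907, plus strand), ranged from 2714 to 4277, 2158 to 3931, 2138 to 3630.1 and 2366 to 3668. For each of these 3 genes the ranges of all 4 diets overlapped. At 10% RPS the log2 fold change was -0.22 ± 0.21 (SE) for Tagln, -0.18 ± 0.15 for Smtn and -0.28 ± 0.16 for Lmod1, with DESeq2 adjusted p of 0.591, 0.538 and 0.329. These became -0.03, -0.06 and -0.20 with replicate 2 of the 0% diet left out.

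Of the intermediate filament genes, Des, desmin (chr1:75320511-75345223, plus strand), had 20214, 46939.5, 15001, 22671 and 22984 normalized counts at 0% and 39012, 27048, 21143, 23375 and 14741 at 2% RPS. It had 20677, 16712, 25662, 14979 and 23056 at 5% and 25599, 15042, 23291, 18100.4 and 22512 at 10% RPS. The second 0% library and the first 2% library stood above the other 18. The log2 difference from the 0% diet stood at -0.03, -0.34 and -0.29 at 2, 5 and 10% RPS (DESeq2 adjusted p 0.984, 0.596 and 0.635), and its interval at 10% ran from -0.89 to 0.31. With that 0% library left out the differences were 0.31, -0.00 and 0.05, with the estimate at 5% RPS near 0.

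Synm, synemin, a large intermediate filament protein that copolymerizes with desmin (chr7:67379908-67409527, minus strand), gave 2849, 8661, 2266, 3227 and 3092 normalized counts at 0% and 5356, 2875, 3013, 3581 and 2039.7 at 2% RPS. The 5% libraries gave 3091, 2799.5, 3866, 1844 and 3089 and the 10% libraries 3765, 2273, 3465, 2648 and 3284. The second 0% library was 2.8-fold the median of the other 19, the largest such ratio of any member. Relative to the 0% diet its log2 fold change was -0.25 at 2%, -0.45 at 5% and -0.38 at 10% RPS (SE 0.33 at 10%), with DESeq2 adjusted p of 0.861, 0.504 and 0.551. Without that library Synm was at 0.24, 0.04 and 0.11 from the 0% diet, no longer lower in any of the 3 comparisons.

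The first question of the design is whether RPS changed these genes relative to the plain TWD. A call needed a fold of at least 1.5 and a DESeq2 adjusted p no higher than 0.05, adjusted over all genes tested. None of the 10 members was called at 2% RPS, where 0.0239% of 12561 genes were, at 5% RPS, where 0.438% were, or at 10% RPS, where 0.917% of 12321 genes were. edgeR called 0 of 10 as well, against 0%, 0.0566% (all of them higher) and 0.323% of 12366 genes, of which 0.097% were lower at 10% RPS. At an unadjusted p under 0.05 the count was 0 of 10 in each comparison with either tool, against 8.7%, 16.6% and 18.8% of genes with DESeq2 and 8.09%, 15.9% and 18% with edgeR. The lowest adjusted p of a member was 0.834 at 2%, 0.412 at 5% and 0.32 at 10% RPS.

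The means nevertheless lay to the same side. At 5% RPS all 10 members were below the 0% mean, with log2 differences of -0.46 to -0.17 and a median of -0.30, and at 10% RPS all 10 were below it, by -0.38 to -0.08 with a median of -0.25. At 2% RPS 9 of 10 were below, with a median of -0.09. The medians over all genes were -0.01, -0.01 and 0.00 at 2, 5 and 10% RPS. The 10 genes vary together between libraries, so these are not 10 separate observations, and the 3 comparisons share the 0% libraries. Without replicate 2 of that diet 8 of 10 members were higher at 2% RPS (median 0.09), 9 of 10 lower at 5% (median -0.12) and 7 of 10 lower at 10% (median -0.03), again with 0 called. Replicate 3 was the lowest library of that diet for all 10 members. Leaving it out instead moved the differences at 5% RPS the other way, to between -0.61 (Cnn1) and -0.27 (Smtn), also with 0 called. The data leave room for a change of moderate size: the 95% intervals at 10% RPS reached from -1.04 for Synm to 0.45 for Actg2, and for Myl9 and Lmod1 ran from -0.60 to 0.03 and -0.60 to 0.04.

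**Figure D2:**
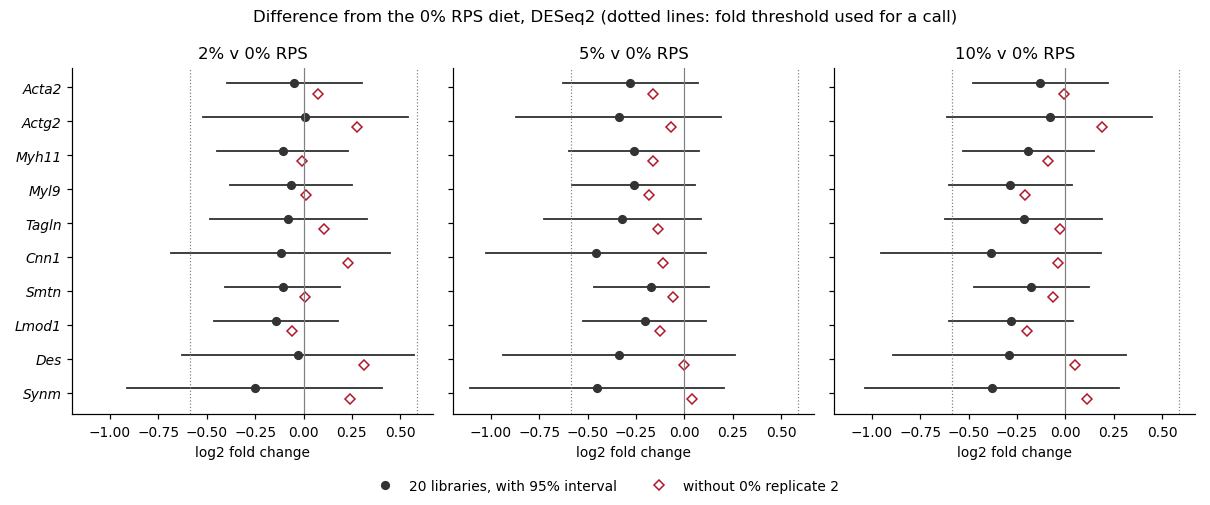
Log2 fold change of each member at 2, 5 and 10% RPS relative to 0% RPS (horizontal axis), from DESeq2. Filled points with lines are the estimates and 95% intervals from 20 libraries, which all include 0, and open diamonds the estimates without replicate 2 of the 0% diet, which lie closer to or above 0.

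Between the starch diets no member was called either. Going from 2 to 5% RPS, 0 of 10 members were called and 0% of genes were. From 2 to 10% RPS the count was 0 of 10 against 0.0557% of genes, and from 5 to 10% RPS it was 0 of 10 against 0.00796%. Of the genes called from 2 to 10% RPS, 0.0478% of all tested were higher. With edgeR 0 of 10 were called in each of the 3, and no member reached an unadjusted p under 0.05, against 2.86%, 9% and 4.11% of genes by DESeq2 and 2.59%, 8.52% and 3.72% by the other tool. All 10 means were lower at 5% than at 2% RPS (median -0.22), all 10 lower at 10% than at 2% (median -0.13), and 7 of 10 higher at 10% than at 5% (median 0.07), so the 5% diet held the lowest mean for most of the genes. In none of the 6 comparisons did the 2 ranges of any member stay clear of each other, while 0.596% to 2.52% of all genes with counts had such ranges.

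A straight line over the percentage of RPS addressed dose. No member passed at an adjusted p no higher than 0.05, where 4.29% of 12545 genes did, and edgeR also passed 0 of 10, against 1.33% of genes. At an unadjusted p under 0.05, DESeq2 had 1 of 10, where 19.1% of genes were, and edgeR 0 of 10, where 18.3% were. In the former the slope of Myl9 was -0.03 on the log2 scale for each percent of RPS (SE 0.0148), with a DESeq2 adjusted p of 0.246. All 10 slopes were below 0, with a median of -0.02 for each percent, and without replicate 2 of the 0% diet 8 of 10 were. The test for any difference among the 4 diets passed 0 of 10 members, against 2.38% of all genes by DESeq2 and 0.0566% by edgeR. At an unadjusted p under 0.05 it had 0 of 10 by either tool, against 14.3% and 12.1% of genes. As a share of all counts the summed members averaged 0.862 ± 0.244% (SD, n = 5) at 0%, 0.799 ± 0.208% at 2%, 0.681 ± 0.109% at 5% and 0.709 ± 0.145% at 10% RPS, and the ranges overlapped: 0.576 to 1.25%, 0.511 to 1.1%, 0.514 to 0.796% and 0.59 to 0.943%. Fewer smooth muscle cells in a segment and less of these mRNAs per cell cannot be told apart in bulk RNA.

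The larger movement was between mice on the same diet. The highest library exceeded the lowest by 1.83-fold for Myl9, 1.85-fold for Smtn, 2-fold for Lmod1, 2.03-fold for Myh11, 2.09-fold for Acta2, 2.5-fold for Tagln, 2.97-fold for Actg2, 3.18-fold for Des, 3.42-fold for Cnn1 and 4.7-fold for Synm, against a median of 1.49-fold over the 11541 genes with a mean of at least 100 normalized counts. The coefficient of variation of the members was 17.1% (Smtn) to 43.6% (Synm), at percentiles 80.6 to 98.6 of those genes, whose median was 10.6%. Without replicate 2 of the 0% diet it was 14.9% (Smtn) to 26.5% (Des). Diet accounted for 5.77% (Synm) to 18.1% (Myl9) of the variance of a member, and for 17.8% in the median gene. The low end was shared as well: replicate 5 of the 2% diet was the lowest library for 5 members and replicate 4 of the 5% diet for the other 5.

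**Figure D3:**
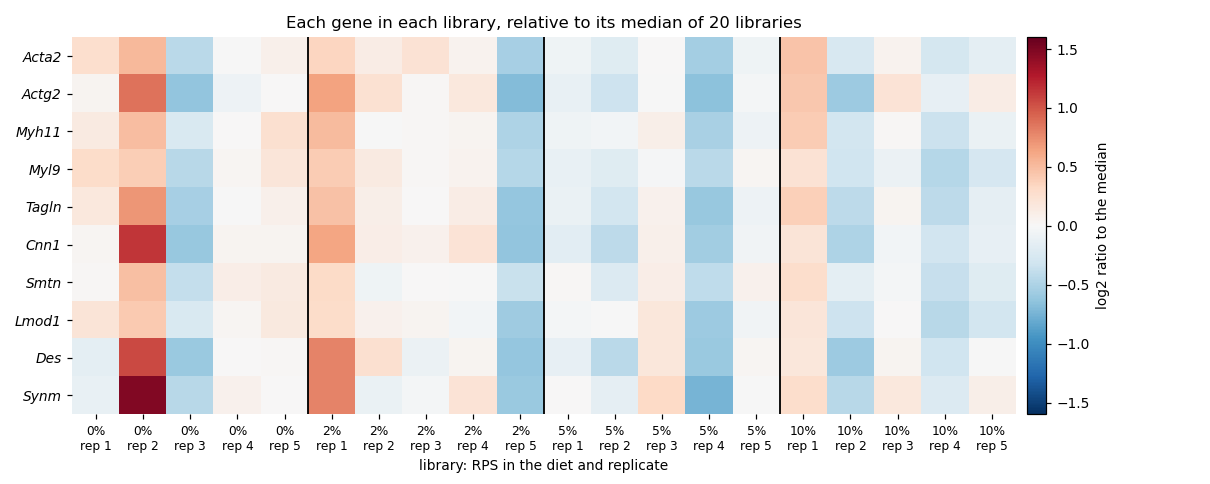
Log2 ratio of each member (rows) in each of 20 libraries (columns, grouped by RPS in the diet) to that gene's median over the libraries. In 10 of the 20 columns all of the genes lie on 1 side of their median: replicate 2 of the 0% diet and replicate 1 of the 2% diet are high in all 10 genes, and replicate 3 of the 0% diet, replicate 5 of the 2% diet and replicate 4 of the 5% diet are low.

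The members varied together from mouse to mouse. Over the 45 pairs the Pearson r of log2 normalized counts ran from 0.765 (Myl9 and Synm) to 0.972 (Des and Cnn1), with a median of 0.912, and the median was 0.922 after each gene was centered on its diet mean and 0.9 without replicate 2 of the 0% diet. With Myh11 as the reference, 9 relations were computed over the 20 libraries. Tagln followed it most closely, with r = 0.957 and Spearman's rho = 0.946, then Lmod1 (r = 0.946, rho = 0.944), Acta2 (0.934, 0.926), Myl9 (0.929, 0.908) and Smtn (0.926, 0.862). Actg2 (r = 0.885, rho = 0.82), Cnn1 (0.882, 0.881), Des (0.864, 0.794) and Synm (0.86, 0.818) followed it less closely. Each r had a two-sided permutation p of 1e-05, raw and adjusted over the 9, the smallest that 100000 permutations can give, and the permutation p of rho was 1e-05 to 6e-05 (adjusted 1.5e-05 to 6e-05). Leaving out the 2 libraries farthest from the median of Myh11, replicate 1 of the 2% diet and replicate 2 of the 0% diet, gave r of 0.789 (Des) to 0.941 (Tagln), and centering on diet gave 0.853 (Synm) to 0.956 (Tagln). The 10 genes share a library, its scaling and its tissue makeup in every point.

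Within a library the genes were not in a fixed ratio. The pairs below were chosen after the values were seen and share genes, so their agreement is description and not separate evidence. Des was counted at 0.6 of Acta2 in the median library, and the highest ratios were 0.894 in replicate 2 of the 0% diet and 0.843 in replicate 1 of the 2% diet, with the next at 0.698. The same 2 libraries were the highest, in the same order, for Synm to Lmod1 (2.03 and 1.36, median 0.983), for Synm to Acta2 (0.165 and 0.116, median 0.0876), for Cnn1 to Smtn (1.6 and 1.26, median 0.976) and for Actg2 to Acta2 (0.792 and 0.764, median 0.604). The ratio of Myh11 to Acta2 showed no such pattern, at 1.35 to 1.8 with a median of 1.57. A ratio within a library does not depend on its scaling, and shows only that the 2 counts moved unequally. Replicate 2 of the 0% diet held more of every member than the median of the other 19 libraries. The excess over that median was largest for Synm (2.8-fold), Cnn1 (2.27-fold), Des (2.09-fold) and Actg2 (1.84-fold). It was smallest for Myl9 (1.33-fold) and Lmod1 (1.34-fold).

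**Figure D4:**
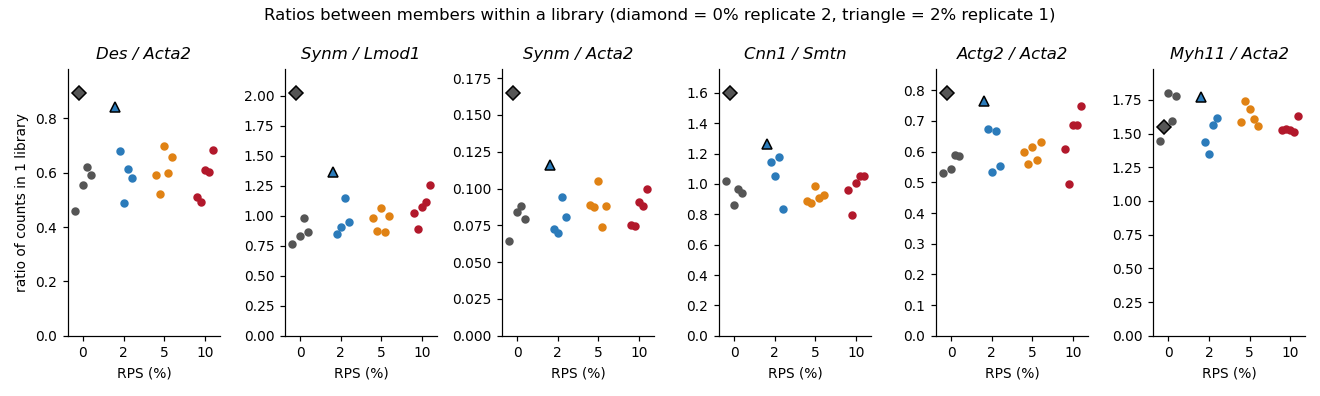
Ratio of the counts of 2 members in the same library (vertical axes, from 0), by RPS in the diet in percent (horizontal axes), 1 point per library. Replicate 2 of the 0% diet (diamond) and replicate 1 of the 2% diet (triangle) are the highest 2 of 20 in each panel but Myh11 to Acta2. The pairs were chosen after the values were seen.

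The genes outside the set whose pattern was most like it were found by the mean Pearson r with the 10 members (9 for a member itself) over the 20 libraries, among the 11541 genes. The 10 highest were Tpm2 (0.935) and Tpm1 (0.925), tropomyosins of the thin filament, Csrp1 (0.935), a LIM protein of smooth muscle, Flna (0.928), the actin cross-linker filamin A, Dmpk (0.925), a kinase of muscle, Vim (0.918), vimentin of mesenchymal cells, and Marveld1 (0.918), Kank2 (0.916), Popdc2 (0.915) and Nid1 (0.915). Tagln, at 0.943, was the member nearest to the rest, and Synm, at 0.869, the farthest. The 5 lowest were Slc35b3 (-0.864), Far2 (-0.859), Slc30a5 (-0.849), Shtn1 (-0.831) and Metap1 (-0.8). By marker list the median of the mean r was 0.798 for the fibroblast genes measured, 0.599 for enteric neuron, 0.558 for pericyte, 0.493 for endothelium, 0.201 for enteric glia and -0.0819 for epithelium genes, against -0.0403 for all genes. These are correlations over 20 libraries that share a scaling, given as a description.

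Other genes of smooth muscle were taken from a list of 80, of which 68 were in the table. None was called at 2% RPS, by DESeq2 or edgeR, where 0.0239% and 0% of all genes were, and 1 of 68 had an unadjusted p under 0.05 by either tool, against 8.7% and 8.09% of genes. At 5% RPS 1 of 68 was called lower and 0 higher, against 0.103% and 0.334% of all genes, and at 10% RPS 3 were called lower and 0 higher, against 0.381% and 0.536%. With edgeR the counts were 0 at 5% and 1 at 10% RPS, against 0.0566% and 0.323% of genes. At an unadjusted p under 0.05 DESeq2 had 7 and 12 of 68, against 16.6% and 18.8% of genes, and edgeR 5 and 11, against 15.9% and 18%, so these counts were not above the background. Without replicate 2 of the 0% diet DESeq2 called 0 at 2%, 0 at 5% and 4 at 10% RPS. The shares of all genes called in that fit are not reported here, so these counts cannot be set against a background. The median log2 difference of the 68 was -0.05, -0.13 and -0.08 at 2, 5 and 10% RPS.

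Tacr2, the neurokinin 2 receptor through which tachykinins of enteric neurons contract the gut, had 233, 509, 231, 279.5 and 290.3 normalized counts at 0% and 279, 213, 181, 200.1 and 163 at 2% RPS. It had 197, 214, 187, 148 and 175 at 5% and 239, 145, 133, 184 and 149 at 10% RPS. Every 5% library lay below every 0% library, and 4 of the 5 10% libraries did. Tacr2 fell by 0.74 on the log2 scale at 5% (DESeq2 adjusted p 0.0382, edgeR 0.138) and by 0.86 at 10% RPS (0.00543 and 0.0505). Without replicate 2 of the 0% diet, its highest library, the differences were -0.49 (DESeq2 adjusted p 0.0825) and -0.61 (0.016), so the call at 5% was lost and that at 10% was not. The call at 5% was lost in 10 of the 20 fits that left out 1 library. These include the fits without replicate 1 and without replicate 5 of the 2% diet. In both of those Tacr2 had no adjusted p, and its difference stayed at -0.74.

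Nkx3-2, a homeobox factor of gut mesenchyme, had 226, 327, 237, 279 and 303 normalized counts at 0% and 391, 263, 248, 220.4 and 175 at 2% RPS. It had 243, 191, 288, 197 and 199 at 5% and 150.2, 153, 189, 172 and 166 at 10% RPS. The 10% libraries all lay below the 0% libraries, and all below the 5% libraries by a narrow margin. Nkx3-2 fell by 0.72 on the log2 scale at 10% RPS (SE 0.18, DESeq2 adjusted p 0.00502, edgeR 0.0458), and by 0.65 without replicate 2 of the 0% diet (0.0133 by DESeq2).

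Pln, phospholamban, the inhibitor of the calcium pump of the sarcoplasmic reticulum, had 352, 556, 227, 335 and 373 normalized counts at 0% and 350.1, 341, 288, 322 and 204 at 2% RPS. It had 291, 226, 339, 185 and 218 at 5% and 188, 248, 215, 251 and 166 at 10% RPS. The lowest 0% library lay among the 10% libraries and the other 4 above them. Pln fell by 0.79 at 10% RPS (SE 0.21, DESeq2 adjusted p 0.0127, edgeR 0.0665), and by 0.59 without replicate 2 of the 0% diet (0.0412 by DESeq2). The call was lost without replicate 5 of the 10% diet, at a DESeq2 adjusted p of 0.0697, and without the 3 libraries whose label numbers lie apart from the other 17 (0.0607), where that of Tacr2 at 10% was lost too (0.058). The pump itself, Atp2a2, was at 0.06 (adjusted p 0.688).

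Rock2, a kinase that holds myosin light chains phosphorylated, was the single gene of the 68 to pass the trend test with a rising slope, where 19 had slopes above 0. The mean Pearson r of Rock2 with the 10 members was -0.31, against a median of -0.04 over all genes. Which cells gave its counts was not tested. Its normalized counts ranged from 3312 to 4094 at 0% and 3472 to 4193 at 2% to 3666 to 4569 at 5% and 3783 to 4892 at 10% RPS. The log2 slope was 0.0248 for each percent of RPS (SE 0.00721, DESeq2 adjusted p 0.0235, edgeR 0.0812), and the difference at 10% RPS, 0.26 with an adjusted p of 0.0316, was below the fold required. Nkx3-2, Pln and Tacr2 had falling trends (adjusted p 0.00127, 0.00841 and 0.0205 by DESeq2), so that 4 of 68 passed, 1 higher and 3 lower, against 2.4% and 1.89% of all genes, and edgeR passed 2, Nkx3-2 and Pln, against 1.33% of genes. With 1 library left out, the trend of Rock2 was lost without replicates 4 and 5 of the 0% diet and 3 and 5 of the 10% diet. That of Tacr2 was lost without replicate 5 of the 0% diet and 3 and 5 of the 10% diet, and that of Pln without replicate 5 of the 10% diet. The test among the 4 diets passed 2 of 68 by DESeq2, Tacr2 and Nkx3-2 (adjusted p 0.0148 and 0.0226), and 0 by edgeR. Of all genes 2.38% by DESeq2 and 0.0566% by edgeR passed it, so the DESeq2 count was near the background. By either tool 4 of 68 had an unadjusted p under 0.05, against 14.3% and 12.1% of genes.

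The rest of the list, by role, held no call against the 0% diet. Of the 6 thin filament genes measured, Tpm1 and Tpm2 were the most abundant and stood at -0.07 and -0.21 at 10% RPS. Of the 12 genes of myosin and its regulation these were Myl6, the essential light chain, at -0.10, and Mylk, the light chain kinase, at -0.15. Of the 23 genes of dense bodies and adhesion they were Flna at -0.11 and Csrp1 at -0.12. Of the 8 transcription factors and cofactors they were Mef2d at 0.06 and Srf itself at -0.01. The median of those 8 was -0.24, and 5 were lower at an unadjusted p under 0.05 by either tool. Of all genes 18.8% by DESeq2 and 18% by edgeR had such a p, in either direction, and of the 68 listed genes DESeq2 had 12. The 5 were Nkx3-2 and, named after their values were seen, Foxf2 (-0.36), Nkx2-3 (-0.30), Foxf1 (-0.28) and Mrtfb (-0.21). These last 4 had DESeq2 adjusted p of 0.121 to 0.239, and their values without replicate 2 of the 0% diet are not reported here. Of the 19 channels, receptors and calcium genes, whose median was -0.21, the most abundant were Atp2a2 and Pde5a, a phosphodiesterase, the last at -0.00. The adjusted p of the 10 most abundant genes named here ran at 10% RPS from 0.525 (Tpm2) to 0.991 (Pde5a).

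The summed markers of other cells in the segment were as follows. The 8 fibroblast markers measured of 9, led by Col3a1 and Col1a2, summed to 19912 to 60188 normalized counts at 0%, 18555 to 31515 at 2%, 20569 to 29104 at 5% and 21214 to 30376 at 10% RPS. The 12 epithelial markers were led by Muc2 and Car1 (means 500302 and 321199), with Krt8 next (137109). They summed to 914048 to 1075670 at 0%, 958828 to 1338810 at 2%, 1176480 to 1255920 at 5% and 1111490 to 1627400 at 10% RPS. All 5 of the 5% and of the 10% libraries were above the highest 0% library in this sum. Of single genes, 2.43% at 5% and 2.52% at 10% RPS had ranges clear of the 0% diet, in either direction. The sum follows mainly its most abundant markers and does not speak for each marker. The 9 of 11 enteric neuron markers, led by Nos1 and Uchl1, summed to 5704 to 10021 over the 20 libraries, and the 5 of 6 enteric glia markers to 9458 to 15540, with replicate 2 of the 0% diet the lowest. The 4 of 5 markers of interstitial cells of Cajal, led by Kit and Ano1, ran from 5319 to 9818, the 5 of 6 pericyte markers, led by Rgs5 and Cspg4, from 11337 to 22154 and the 8 endothelial markers, led by Pecam1 and Tie1, from 3306 to 5290, each sum highest in that same library. Of the markers of interstitial cells of Cajal, Ano1 (3239) and Thbs4 (2127) were at their highest in it. Kit (3659, highest library 4174) and Etv1 (792, highest library 892) were not. Leukocyte markers (4 of 7, led by Jchain and Lyz2) and adipocyte markers (5 of 6, led by Fabp4 and Cidec) ran from 2994 to 15058 and from 1190 to 20315, the last highest in replicate 1 of the 10% diet. Of 9 skeletal muscle markers 3 were in the table, led by Ckm and Acta1 (845 to 1449 in all), of 6 cardiac markers 1, Myl7 (73.9 to 250), and of 5 mesothelium markers 0, and no marker in the table was at 0 in every library. The part of these cell types in the level of the members was not tested.

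**Figure D5:**
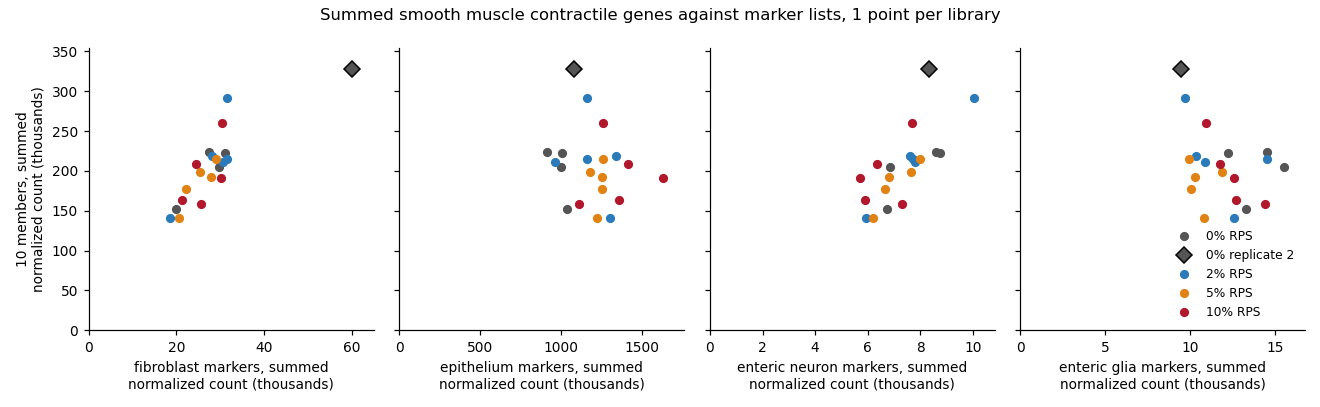
Summed normalized count of the 10 members (vertical axis, in units of 1000) against the summed count of 4 marker lists (horizontal axes, in units of 1000), 1 point per library and colored by diet. The diamond, replicate 2 of the 0% diet, is the highest for the members and for the fibroblast markers and the lowest for the enteric glia markers.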

How the data were processed

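Deposited counts were used: raw whole-number reads per gene for 12701 genes in 20 libraries, 5 per diet, with no normalization by the authors. Per the study's methods and the labels, polyA RNA was made into stranded single-end libraries, low-quality bases were removed, and reads were mapped and counted on GRCm39 in CLC Genomics Workbench. The annotation, the use of strand and the handling of multi-mapped reads are not given in the sources used here. All members but Myh11 and Actg2 overlap a gene on the other strand, and 0.202% of 50-base windows of Acta2 and 0.34% of those of Myh11 occur in another gene. Totals ran from 20581013 to 35083751 counts, and no column belonged to no sample.

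All libraries entered 1 DESeq2 fit on diet (DESeq2 1.42.0 in R 4.3.3), with default independent and Cook filtering, Benjamini-Hochberg adjustment over all genes, and a gene called changed where its fold was at least 1.5 with an adjusted p no higher than 0.05. A trend over the percentage of RPS and a likelihood ratio test over the 4 diets used the adjusted p alone. edgeR 4.0.16 (quasi-likelihood test, TMM) was the alternative, and both were tested on simulated data. Correlations used log2 of the normalized count plus 1. Per-length levels used the union of exons of GENCODE M39. Other alternatives were TMM factors, filters on low counts, single libraries left out and the 3 libraries whose label numbers lie apart left out.

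The members and lists were chosen with earlier results of these data known. The text names all members, other smooth muscle genes changed against 0% RPS or with a trend, the 2 most abundant genes of each list, and the 10 genes most and 5 least like the members. Rock2 was named by its trend, after its values were seen. The most abundant enteric glia markers are not reported here by name. No 2 libraries of a diet agreed within sampling noise (lowest chi-square per degree of freedom 13.7 over 40 pairs), and whether replicates came from separate cages is not stated.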

Additional observations from a re-analysis of the deposited data

Results flagged for a closer look

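Within a diet, 4 of the 60 sets of 5 libraries tested held a value set far from the other 4, by a gap over range above 0.71, and chance alone gives about 1 in 20. All 4 were replicate 2 of the 0% diet, so they are not separate observations. Des had 46939.5 normalized counts in it, against 15001 to 22984 in the other 4 libraries. Cnn1 had 29960.1, against 8881 to 13992. Synm had 8661, against 2266 to 3227. Tacr2 had 509, against 231 to 290. The cause was not tested.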

How the results depend on the processing

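The count of members called was 0 under every alternative run, and over the 28 settings of each comparison, the reported one included, the lowest adjusted p of a member was 0.63 at 2% RPS (Synm), 0.114 at 5% (Cnn1) and 0.083 at 10% (Myl9), the last 2 without replicate 3 of the 0% diet. Signs were less stable. Without the 3 libraries whose label numbers lie apart, the log2 difference at 2% RPS turned to 0.0713 for Acta2, 0.0020 for Myh11, 0.11 for Des, 0.0487 for Tagln, 0.0236 for Cnn1 and 0.0407 for Myl9. With 1 library left out it ranged at 2% RPS over Acta2 -0.16 to 0.0738, Myh11 -0.25 to 0.0020, Des -0.24 to 0.31, Tagln -0.21 to 0.11, Cnn1 -0.28 to 0.23, Actg2 -0.15 to 0.28, Myl9 -0.18 to 0.0407, Smtn -0.21 to 0.00573 and Synm -0.48 to 0.24, at 5% over Synm -0.60 to 0.0392, and at 10% over Des -0.43 to 0.0490, Actg2 -0.22 to 0.19 and Synm -0.53 to 0.11. Except for Myh11 and Myl9 at 2% RPS, the highest of each of these ranges came without replicate 2 of the 0% diet.
Of the other smooth muscle genes, edgeR called 0 at 5%, 1 at 10%, 0 among the 4 diets and 2 by trend. Without the 3 libraries 1 was called at 10% RPS (the adjusted p of Tacr2 was 0.058 and of Pln 0.0607) and 1 among the 4 diets. With 1 library left out the counts were 0 to 2 at 5%, 2 to 4 at 10%, 0 to 4 among the 4 diets and 1 (without replicate 5 of the 10% diet) to 8 (without replicate 1 of it) by trend. The shares of all genes called without the 3 libraries or with 1 left out are not reported here. These counts therefore cannot be set against a background. The summed share of counts without the actins was 0.616, 0.564, 0.488 and 0.493% at 0, 2, 5 and 10% RPS, and with 1 library left out all 10 members gave 0.766 to 0.934, 0.725 to 0.872, 0.653 to 0.723 and 0.65 to 0.739%. In all, 1449 of 1528 alternative values over 60 results kept direction and side of the threshold, or size. These include the counts of members called, which were 0 in every setting, and counts of genes that stayed close to the reported one. The total therefore does not measure how stable the signs were: at 2% RPS 9 members turned in sign in at least 1 setting. No paired analysis was possible because the labels give the diets no shared replicate numbers. Depth did not limit the members, whose lowest count was 1949. The cause of these changes was not tested.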
